A study of Mus musculus with 2 samples.

Results

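The genes described here are 10 genes read as early signs of a granulocyte or monocyte fate in blood-forming cells: Mpo, Elane, Prtn3, Ctsg, Ms4a3, Csf1r, Irf8, Cebpa, Cebpe and Csf3r. They were taken by symbol from the gene features of both deposited matrices, where each symbol had 1 entry, and they are 10 of 32285 genes measured. The cells came from the bone marrow of mice and were sorted as LSK cells, which lack lineage markers and carry Sca-1 and c-Kit. Both the haematopoietic stem cells (HSCs) and the multipotent progenitors (MPPs) of the marrow belong to this fraction. They were profiled by CITE-seq, which reads each cell's RNA together with surface proteins through antibodies that carry a sequence tag.

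There were 2 groups. Mice of the chelator group were given deferoxamine, a drug that binds iron, at 50 mg/kg, and mice of the control group were given the salt solution HBSS in its place. In both groups dosing took place each day for 7 days, was repeated every 4 weeks, began at about 6 months of age and went on for 13 months, so both groups were aged. Cells carried 1 hashtag antibody per condition, about 20000 LSK cells were sorted per sample, and the conditions were mixed in equal parts and loaded together. Each condition is thus 1 pool of cells, with no replicate. The sources used here do not give the strain, the sex or the number of mice in a pool. No p-value can be computed, and every interval below is a 95% interval that covers counting error only.

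Myeloid progenitors that turn to the granulocyte and monocyte fates start to make the proteins of the primary granules, namely myeloperoxidase and the serine proteases elastase, proteinase 3 and cathepsin G, well before the cells look like granulocytes. The transcription factor C/EBPα opens this program, C/EBPε acts later in granulocyte maturation, and IRF8 favours the monocyte and dendritic branches. The growth factor receptors for M-CSF and G-CSF, products of Csf1r and Csf3r, carry the signals for monocyte and neutrophil production. In surface-marker schemes of the LSK fraction, MPP3 cells are known as the myeloid-biased and MPP4 cells as the lymphoid-primed multipotent progenitors.

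After removal of cells with under 500 genes or at least 10% mitochondrial counts, 3969 control and 3998 chelator cells remained, and the 2 matrices shared 0 cell barcodes. Depth was similar, with a median of 13705 unique molecular identifiers (UMIs, counted RNA molecules) per control cell and 14455.5 per chelator cell. Kit, one of the sort markers, had a UMI in 92.9% of control and 92.7% of chelator cells, and Ly6a, which encodes Sca-1, in 64.0% and 65.8%. Each pool held cells of both sexes in unequal parts. Xist without Y-linked transcripts was seen in 1417 control and 897 chelator cells, and Y-linked transcripts without Xist in 1952 and 2542. Cells with at least 2 UMIs of each kind, a sign of 2 cells in 1 droplet, numbered 35 and 52, and 565 and 507 cells fell in none of these classes.

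The genes differed first in how their UMIs were spread over cells. Prtn3 and Csf3r were found at a low level in a large part of the fraction, whereas nearly all Elane and Cebpe UMIs, and most Ms4a3 UMIs, lay in 40 cells or fewer. This was measured as the share of a gene's UMIs in the richest 1% of cells, which is 40 cells in each pool. Over the 11386 genes with at least 200 UMIs in the control pool the median of this share was 8.91%, and over the 11457 such genes in the chelator pool it was 8.54%. Genes above a share of 50% made up 0.896% and 0.602% of them.

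Elane encodes neutrophil elastase, a serine protease of the primary granules. It had 7132 UMIs in the control pool, found in 150 of 3969 cells, and 8502 UMIs in the chelator pool, found in 167 of 3998 cells. The richest 40 cells held 98.3% of its UMIs in either pool, and 50% of them lay in 5 control and 7 chelator cells. Single cells reached 1176 UMIs in the control and 738 in the chelator pool. Elane therefore marked very few cells very strongly in both pools, and most of the cells with a count had 1 or 2 UMIs. Such low counts were also seen where the gene is not thought to be expressed: 1 of 19 control cells and 1 of 16 chelator cells rich in the erythroid factor Klf1 (at least 10 UMIs) had an Elane UMI, at median depths of 52608 and 45048.5 UMIs. Those are shares of 5.26% and 6.25%, against 3.78% and 4.18% of all LSK cells. Among cells rich in the megakaryocyte gene Pf4 the counts were 1 of 86 and 0 of 79 cells, at median depths of 24727 and 22952. Part of the single Elane counts is thus at the level of cells not thought to express the gene, and how large that part is was not tested.

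Prtn3 encodes proteinase 3, a protease of the same granules, and lies beside Elane on chromosome 10, with 3137 bp between the end of Prtn3 (chr10:79879667-79883174, GRCm38.p6) and the start of Elane (chr10:79886312-79888216). Its spread was the opposite of its neighbour's. Prtn3 had 35299 UMIs in 3624 control cells, 91.3% of the pool, and 39036 UMIs in 3740 chelator cells, 93.5% of the pool. The richest 40 cells held 17.0% and 18.0% of its UMIs, and it took 633 and 654 cells to hold 50%. In Klf1-rich cells the share with a Prtn3 UMI was lower, 21.1% of 19 control and 56.3% of 16 chelator cells, despite their greater depth, and their level was 20.2 and 52.5 CPM (UMIs scaled to library size) against 558 and 587 in the whole fraction. A wide low level of Prtn3 over the LSK fraction was thus above what these erythroid-primed cells held.

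The windows before the transcription starts of the 4 granule protein genes are shown here because the 4 shared 3 related patterns of the 9 searched for, while their UMIs were spread so differently. Of the 10 genes, 8 had an entry among the RefSeq promoter sequences (GRCm38.p6). The 250 bases before the start were searched on both strands for 9 patterns linked to factors of the myeloid program, and AGGAAGT, a form of the core bound by ETS factors such as PU.1, is in capitals. Each sequence is written 5′ to 3′ on the gene's own strand.

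Prtn3 (chr10:79879417-79879666, + strand): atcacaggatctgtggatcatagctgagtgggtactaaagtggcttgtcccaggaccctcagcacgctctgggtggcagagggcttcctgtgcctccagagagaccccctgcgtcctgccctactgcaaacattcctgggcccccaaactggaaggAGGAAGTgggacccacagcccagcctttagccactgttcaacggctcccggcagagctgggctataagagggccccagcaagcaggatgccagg

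Elane (chr10:79886062-79886311, + strand): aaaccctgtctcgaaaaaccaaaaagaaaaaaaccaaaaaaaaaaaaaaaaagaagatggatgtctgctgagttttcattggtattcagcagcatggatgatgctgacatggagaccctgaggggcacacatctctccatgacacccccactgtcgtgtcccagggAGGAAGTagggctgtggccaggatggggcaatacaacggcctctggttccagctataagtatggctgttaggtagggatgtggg

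Mpo (chr11:87793534-87793783, + strand): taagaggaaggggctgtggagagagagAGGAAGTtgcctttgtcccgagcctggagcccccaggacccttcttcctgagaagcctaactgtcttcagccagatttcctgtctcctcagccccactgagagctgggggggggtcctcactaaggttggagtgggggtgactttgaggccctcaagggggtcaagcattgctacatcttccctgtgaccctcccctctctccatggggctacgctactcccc

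Ctsg (chr14:56102575-56102824, - strand): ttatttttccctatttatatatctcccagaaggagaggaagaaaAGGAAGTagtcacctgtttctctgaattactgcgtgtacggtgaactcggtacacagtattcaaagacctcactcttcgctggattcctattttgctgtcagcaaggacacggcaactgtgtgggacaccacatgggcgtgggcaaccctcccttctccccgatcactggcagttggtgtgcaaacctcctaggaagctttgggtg

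AGGAAGT occurred once in each of these 4 windows, and in 7.69% of the 32851 windows of that length in the table. It began at base -94 in Prtn3, -84 in Elane, -223 in Mpo and -206 in Ctsg, counted from the transcription start. The windows of Ms4a3, Irf8, Cebpa and Csf3r held 0 copies. The palindromic C/EBP pattern TTGCGCAA was in 0 of the 8 windows and in 0.164% of all windows, and the looser TTNNGCAA in 0 of the 8 and in 9.56% of all. A further C/EBP pattern, TGNGCAA, was in 1 of the 8, with 2 copies in the Ctsg window, and in 11.8% of all. The related GAGGAAG, 6 letters of which can overlap AGGAAGT, and its first 6 letters, GAGGAA, were found in the same 4 windows and in that of Csf3r, and in 10.6% and 23.3% of all. Among patterns of MYB type, AACNGNC was in 4 of the 8 (27.7% of all), CAACNG in 3 of the 8 (29.3% of all) and AACTG in 5 of the 8 (39.1% of all). A match describes the letters of a window and does not show binding, and these data hold no measure of binding.

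Mpo encodes myeloperoxidase, the haem enzyme of the primary granules, and had 26629 UMIs in 1405 control cells and 30653 UMIs in 1404 chelator cells. The richest 40 cells held 49.0% and 52.3% of these, and 43 and 36 cells held 50%. Ctsg encodes cathepsin G and was spread alike, with 8283 UMIs in 614 control cells and 9606 UMIs in 691 chelator cells, of which the richest 40 held 48.8% and 49.0%. These 2 genes thus stood between Elane and Prtn3, with a strong peak in few cells and a lower level in many more.

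Ms4a3 encodes a membrane-spanning protein known from granulocyte-monocyte progenitors and from basophils. It had 1005 UMIs in 257 control cells and 1106 UMIs in 265 chelator cells, with 72.5% and 74.1% in the richest 40. Cebpe, which encodes C/EBPε, had only 92 UMIs in 31 control cells and 93 UMIs in 21 chelator cells, so that all of its UMIs lay in fewer than 40 cells, and 5 cells held 50% in either pool. Cebpa, which encodes C/EBPα, was spread far more widely, with 1227 UMIs in 721 control cells, 1214 UMIs in 741 chelator cells and 21.2% and 18.9% of them in the richest 40. The earlier of these C/EBP factors was thus seen in many cells and the later one in few.

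Irf8 had 2596 UMIs in 561 control cells and 2511 UMIs in 604 chelator cells, of which the richest 40 held 52.0% and 50.2%. Csf1r, the M-CSF receptor, had 235 UMIs in 3.33% of control cells and 231 UMIs in 3.38% of chelator cells, with 60.9% and 58.9% in the richest 40. Csf3r, the G-CSF receptor, had 3316 UMIs in each pool, in 1901 control and 1932 chelator cells, and only 6.63% and 6.54% in the richest 40, below the median of all genes. Over the 9 genes with at least 200 UMIs the median share was 49.0% and 50.2%, so 8 of the 9 lay above the median of all genes in both pools and Csf3r lay below it.

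**Figure D1:**
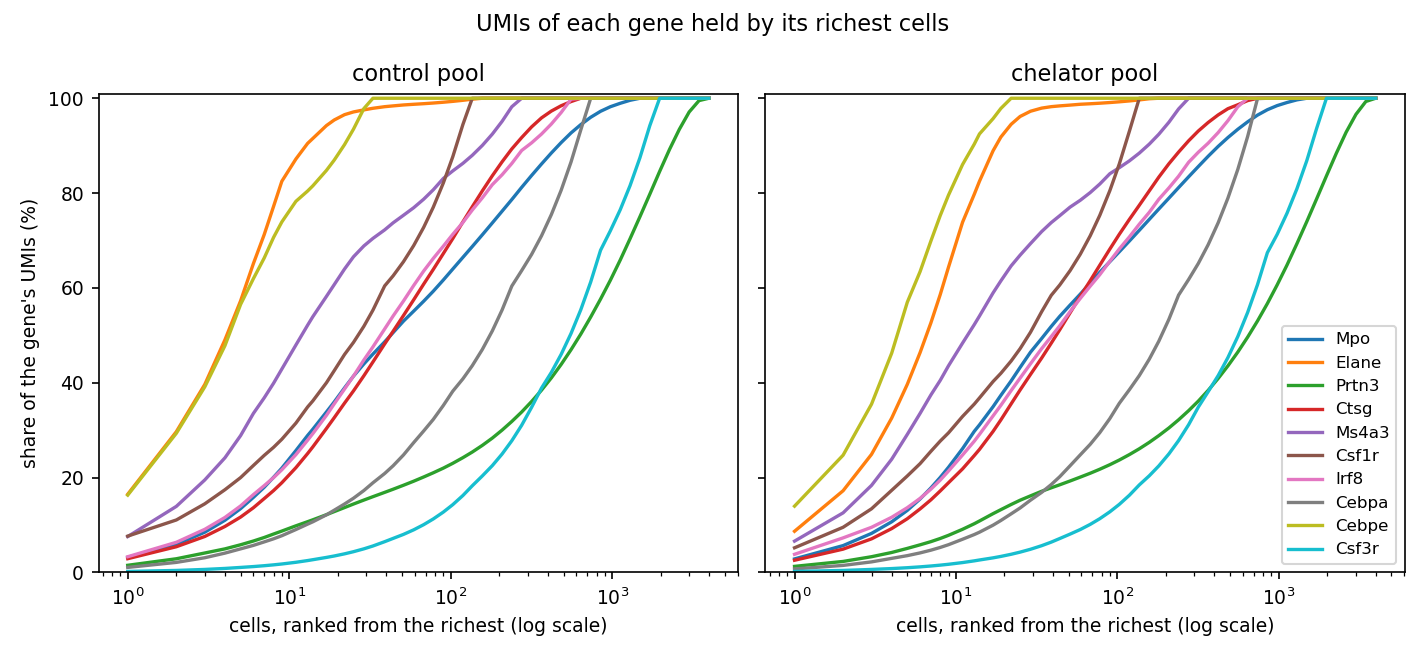
Cumulative share of each gene's UMIs (y axis, percent) against the number of cells, taken from the richest down (x axis, log scale), for the control and the chelator pool. Within 40 cells the Elane curves reach 98.3% and the Cebpe curves their end, the Mpo, Ctsg and Irf8 curves reach 50% at 36 to 43 cells, and the Prtn3 and Csf3r curves do so only beyond 500 cells.

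The surface tags were next used to sort the cells, as a readout independent of the RNA. Each of CD135 (FLT3), CD48 and CD150 (SLAMF1) was split into negative and positive cells, which gave an HSC gate (CD150 alone, 1165 control and 1309 chelator cells), an MPP1 gate (none of the 3, 547 and 557), an MPP2 gate (CD48 and CD150, 92 and 102), an MPP3 gate (CD48 alone, 506 and 622) and an MPP4 gate (CD135 without CD150, 1507 and 1287). A gate is a range of tag signal, not a pure population, and 22.0% of the cells lay within 0.25 units of the CD135 threshold on its centred log-ratio scale. Median depth also differed between gates, from 11612 and 12059 UMIs in MPP1 to 20534.5 and 21883.5 in MPP2, with 12693 and 13296 in the HSC gate and 18689 and 18399 in MPP3, so levels are given as CPM.

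Mpo was high in the MPP3 and MPP4 gates and low in the HSC and MPP1 gates. Its level was 10.0 CPM in the HSC gate, 24.5 in MPP1, 236 in MPP2, 1162 in MPP3 and 559 in MPP4 of the control pool. The chelator pool gave 21.8, 17.9, 407, 1262 and 589 CPM in the same order. MPP3 stood highest and MPP4 next in both pools, and the order of HSC and MPP1 differed between pools. In the HSC gate 6.61% and 5.96% of cells had an Mpo UMI, against 5.26% and 18.8% of the deeper Klf1-rich cells (1 of 19 and 3 of 16), so that in the chelator pool the share was no higher than in cells not thought to express Mpo. In the MPP3 gate 71.9% and 72.3% of cells had one, and 57.4% and 59.3% after each cell was thinned to 5000 UMIs.

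Ctsg followed the same order at the top, with 334 and 358 CPM in the MPP3 gate and 185 and 211 in MPP4, against 2.66 and 4.49 in the HSC gate. Elane reached 556 and 457 CPM in the MPP3 gate and 53.6 and 110 in MPP4. In the MPP2 gate Elane was at 10.9 CPM in the control and 107 CPM in the chelator pool, where 247 of its 250 UMIs came from 1 cell. The log2 ratio of MPP4 over MPP3 was -3.37 and -2.05 for Elane and -1.06 and -1.10 for Mpo. The Elane ratio rested on the cells with at least 5 Elane UMIs described below: without them Elane was at 4.54 and 3.43 CPM in MPP3 and at 2.28 and 3.04 CPM in MPP4.

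Prtn3 did not follow this pattern. It was at 652 and 678 CPM in the HSC gate, 457 and 433 in MPP1, 265 and 283 in MPP2, 764 and 777 in MPP3 and 484 and 499 in MPP4. The HSC gate was thus the second highest of the 5 in both pools and the MPP2 gate the lowest. Cells with a Prtn3 UMI made up 95.9% and 97.3% of the HSC gate, and 89.1% and 92.8% of the deeper MPP3 gate. After thinning to 5000 UMIs the shares were 86.4% and 88.1% in the HSC gate against 78.4% and 83.2% in MPP3. In the MPP2 gate they were 48.4% and 45.5%.

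Ms4a3 was at 67.2 and 52.8 CPM in the MPP3 gate, 15.6 and 31.6 in MPP2, 7.66 and 13.0 in MPP4, 3.08 and 2.38 in the HSC gate and 2.25 and 3.17 in MPP1. Cebpe reached 5.91 and 5.40 CPM in MPP3 and 1.07 and 1.12 in MPP4, and the HSC gate held 3 control UMIs and 1 chelator UMI of it. Cebpa was at 38.2 and 36.1 CPM in MPP3, 29.7 and 28.8 in MPP4 and 1.15 and 1.55 in the HSC gate, with MPP1 and MPP2 between them. So MPP3 was the highest gate for each of these 3 genes.

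Irf8 was the only one of the 10 whose level was higher in MPP4 than in MPP3 in both pools with intervals that left out equality, at 79.0 and 76.1 CPM against 52.1 and 44.6. Its HSC gate level was 1.93 and 4.03 CPM. Csf1r was at 6.95 and 5.95 CPM in MPP4, 4.91 and 5.72 in MPP3 and 0.362 and 0.671 in the HSC gate. MPP3 and MPP4 had no steady order for Csf1r beyond their counting error. Csf3r varied least, with 35.5 and 35.1 CPM in the HSC gate, 53.9 and 50.1 in MPP1, 24.5 and 27.3 in MPP2, 62.8 and 65.7 in MPP3 and 63.3 and 58.0 in MPP4. The growth factor receptors therefore differed in where they were seen: Csf3r was found in every gate, while of Csf1r the HSC gate held only 6 and 13 UMIs and the MPP1 gate 3 and 2.

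**Figure D2:**
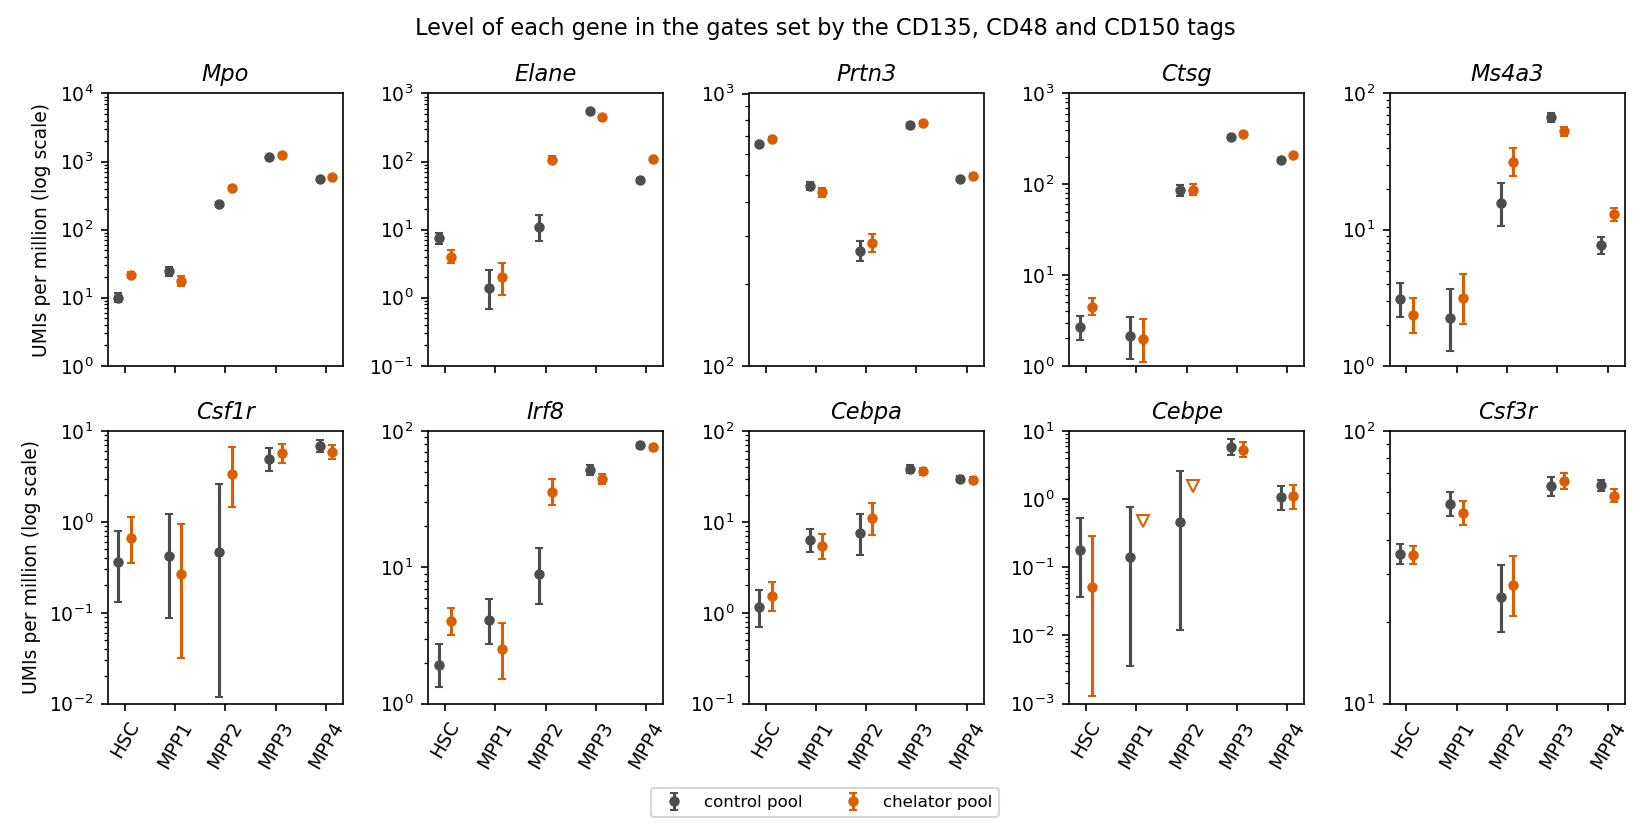
Level of each gene (y axis, CPM, log scale) in the 5 gates set by the CD135, CD48 and CD150 tags, for the control and the chelator pool, with exact Poisson 95% intervals. Open triangles stand at the upper limit where a gate held 0 UMIs of the gene. Mpo, Elane, Ctsg, Ms4a3, Cebpa and Cebpe peak in MPP3, Irf8 peaks in MPP4, and Prtn3 is at 652 and 678 CPM in the HSC gate.

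Against the HSC gate, 8 of the 10 genes were more than 2-fold higher in the MPP3 gate in both pools with an interval that left out equality, where 5.05% of 13596 genes were. The exceptions were Prtn3, with a log2 ratio of 0.23 in the control and 0.20 in the chelator pool, and Csf3r, with 0.82 and 0.90. The largest ratios were 116-fold and 57.9-fold for Mpo, 74.8-fold and 114-fold for Elane and 126-fold and 79.8-fold for Ctsg. The median log2 ratio of the 10 genes was 4.89 and 4.51, against -0.07 and -0.05 over all genes. In the MPP4 gate the same 8 genes passed, against 5.96% of 14105 genes, with medians of 3.56 and 4.23. In MPP2, 5 of the 8 genes with enough counts passed (3.27% of all), and Prtn3 was more than 2-fold lower there (6.67% of all). In MPP1 only Cebpa passed (1.8% of all), and Elane was lower (4.28% of all), with 10 and 15 UMIs. The Elane call came from 1 HSC-gate cell per pool: without these the HSC gate was at 1.57 and 1.40 CPM against 1.41 and 1.98 in MPP1, and the direction turned in the chelator pool.

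Of the HSC gate counts, a large part came from 1 cell per pool. A single chelator cell held 327 of the 422 Mpo UMIs of that gate, and a single control cell held 97 of its 123 Elane UMIs. The HSC gate of each pool had 1 cell with at least 5 Elane UMIs, and without it Mpo was at 7.43 CPM in the control and 4.92 CPM in the chelator HSC gate.

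Cells with at least 5 Elane UMIs are called Elane-rich here. They are a range of 1 gene's counts and not a cell type, and 16 control and 8 chelator cells had 3 to 8 Elane UMIs, close to the threshold. There were 34 in the control pool, 0.857% (0.594% to 1.20%) of its cells, and 37 in the chelator pool, 0.925% (0.652% to 1.27%). The difference was 0.0688 percentage points, with an interval from -0.366 to 0.505. They lay mainly in the MPP3 gate (15 control and 24 chelator cells) and the MPP4 gate (16 and 11), with 0 in MPP1. CD135 parts these 2 gates at a centred log ratio of -0.528. The Elane-rich cells had a median CD135 value of -0.503 in the control and -0.828 in the chelator pool, from a median of 4 tag UMIs in each. Their split between MPP3 and MPP4 thus rests on few tag UMIs, and how firm it is was not tested. Their median depth was 39027.5 and 39469 UMIs against 13648 and 14347 in the other cells. With at least 2 UMIs of each kind required, 0 of them had transcripts of both sexes. A further 7 control and 5 chelator Elane-rich cells fell in none of the sex classes. After each cell was thinned to 5000 UMIs, 19 of 3810 control and 27 of 3860 chelator cells had at least 5 Elane UMIs. What further part the depth had in the choice of the Elane-rich cells was not tested.

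All the other granule genes stood high in these cells. Mpo was at 9571 CPM in the control and 10618 CPM in the chelator Elane-rich cells, against 244 CPM in the rest of either pool. Ctsg was at 2771 and 2918 CPM against 79.8 and 85.3, and Prtn3 at 4442 and 4703 CPM against 483 and 499. Every Elane-rich cell of either pool had UMIs of Mpo, Prtn3 and Ctsg, and the lowest Mpo count was 26 and 19 UMIs. The gap between Elane-rich cells and the rest was thus smaller for Prtn3 than for Mpo or Ctsg.

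Seen from the other side, these cells, under 1% of each pool, held 98.0% and 98.1% of Elane UMIs, which the choice itself fixes. They held 82.6% and 95.7% of Cebpe UMIs, 59.5% and 67.9% of Ms4a3, 43.2% and 48.1% of Mpo and 40.2% and 42.2% of Ctsg. The shares were 20.4% and 31.6% for Csf1r, 15.1% and 16.7% for Prtn3 and 11.8% and 11.1% for Cebpa. Irf8 had 6.01% and 7.77% of its UMIs there and Csf3r 2.29% and 2.77%. Cebpe and Ms4a3 were thus mostly read from Elane-rich cells, and Irf8 and Csf3r mostly from others.

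**Figure D3:**
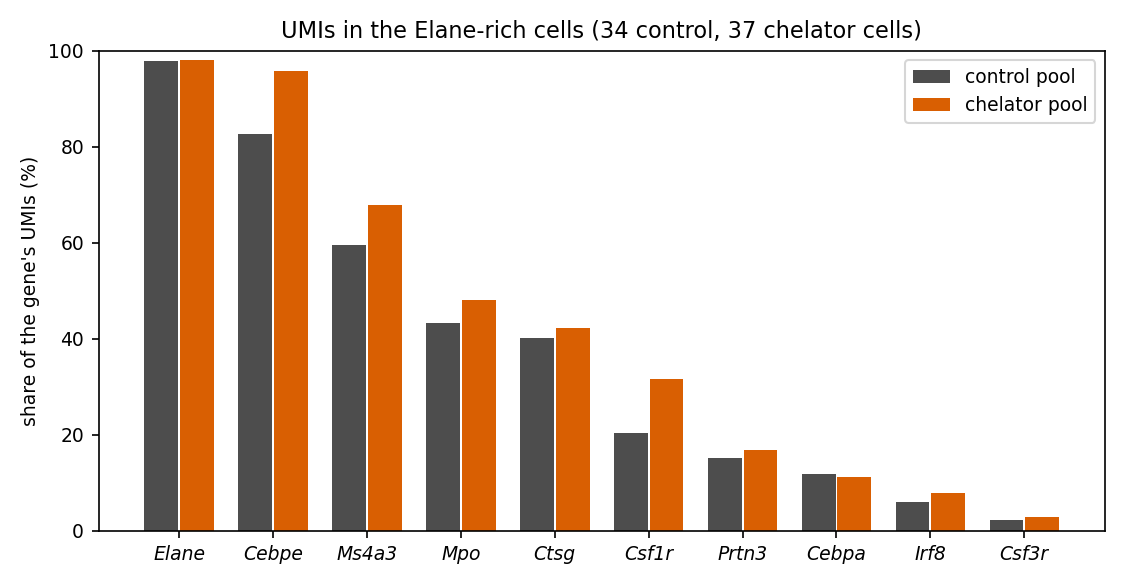
Share of each gene's UMIs (percent) that lay in Elane-rich cells, for the control pool (34 cells) and the chelator pool (37 cells), which are under 1% of each pool. The shares run from 98.0% for Elane, which the choice fixes, down to 2.29% for Csf3r in the control pool.

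Markers outside the 10 genes were read in the same cells. Hp, which encodes haptoglobin, was at 139 and 187 CPM in them against 1.16 and 0.891 in the rest, and the calcium-binding chaperone gene Calr at 1014 and 1057 CPM against 257 and 247. The later granule genes Ltf (lactoferrin) and Camp (cathelicidin) had 0 UMIs in the Elane-rich cells of both pools, and Ngp had 0 and 1. In the rest Ltf was at 0.113 and 0.246 CPM, Camp at 0.306 and 0.384 and Ngp at 0.387 and 0.184. These counts are too low to tell the Elane-rich cells from the rest. The HSC marker Procr was at 2.49 and 8.64 CPM against 86.8 and 75.7, and Ly6a at 9.15 and 15.8 CPM against 155 and 141. S100a8, also a gene of mature neutrophils, had 129 control UMIs, 115 of them in 1 cell, and 7 chelator UMIs, in 5 Elane-rich cells of each pool, and S100a9 had 12 and 2 UMIs. So Procr and Ly6a were lower than in the rest, and S100a8 was high in 1 control cell. Ltf, Camp and Ngp were at or near 0 in the Elane-rich cells and in the rest alike. Mcpt8, a protease of basophils, had 40 and 51 UMIs there, and the monocyte marker Ly6c2 had 500 and 966 UMIs, in 23 of 34 and 26 of 37 cells.

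The surface tags of the Elane-rich cells were read from the same cells. The median count of CD371 (CLEC12A, a myeloid lectin receptor) was 203.5 and 299 tag UMIs in them against 15 and 20 in the rest. CD48 had 51 and 63 against 7 and 7, and CD117 (c-Kit) 1109 and 996 against 843 and 898. On the centred log-ratio scale CD117 had no steady order, at 4.82 and 4.56 against 4.79 and 4.73, and Kit RNA was lower in the Elane-rich cells, at 160 and 138 CPM against 294 and 303. The tags of Sca-1 (3.5 and 3 against 6 and 7), CD150 (11 and 12 against 13 and 15) and Ly-6G (1 and 2 against 2 and 3) had lower medians than in the rest. The Ly-6C tag had a higher median, 16.5 and 31 against 9 and 11. Of the 9 isotype control antibodies 1 was read, with a median of 1 and 2 in the Elane-rich cells and 1 in the rest. The height of CD371 was thus not shared by that control.

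The gates were compared again with the Elane-rich cells left out, which removes nearly all Elane UMIs by the choice itself. Then 7 of 9 genes were more than 2-fold higher in MPP3 than in the HSC gate in both pools (4.87% of all genes), and 5 of 9 in MPP4 (5.8% of all). Mpo, Ctsg, Csf1r, Irf8 and Cebpa passed in both gates, and Elane and Ms4a3 in MPP3 alone. Prtn3 was then lower in MPP3 than in the HSC gate, with a log2 ratio of -0.52 and -0.51 in place of 0.23 and 0.20. The Prtn3 level of the MPP3 gate thus stood above that of the HSC gate only with the Elane-rich cells counted. Mpo kept log2 ratios of 6.18 and 6.71 in MPP3.

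Ms4a3 had a second setting. Outside the Elane-rich cells it was found in 228 control and 234 chelator cells, at up to 26 and 14 UMIs. A UMI of Cpa3, a mast cell and basophil protease, was found in 48.7% and 49.1% of these, against 12.1% and 10.8% of the cells without Ms4a3. Gata1, a factor of the erythroid, megakaryocyte and mast cell branches, was found in 41.7% and 37.6% against 7.74% and 7.19%. The cells with Ms4a3 were also deeper, with medians of 20974.5 and 22138 UMIs against 13312 and 14055, and the part of depth in these shares was not tested. In the MPP2 gate 27.2% and 34.3% of cells had an Ms4a3 UMI. Mpo was also found more often, in 58.8% and 51.7% of the cells with Ms4a3 against 33.4% and 33.4% of those without, and so was Ctsg, in 31.1% and 30.8% against 13.7% and 15.6%. Within the MPP2 gate alone, 20.8% of 24 and 17.6% of 34 cells with Ms4a3 had Mpo, against 28.4% and 32.8% of those without. Ctsg was found there in 8.33% and 2.94% of the cells with Ms4a3, against 14.9% and 14.9% of those without. Cells with Ms4a3 thus more often held a UMI of each of these 4 genes over the whole fraction, and for Mpo and Ctsg not within MPP2.

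Irf8 had a peak in cells most of which were not Elane-rich. Those with at least 10 Irf8 UMIs numbered 61 in the control and 51 in the chelator pool and held 61.3% and 55.0% of Irf8 UMIs. Of them 8 in each pool were also Elane-rich, 13.1% and 15.7% against 0.857% and 0.925% of all cells, and 48 and 39 lay in the MPP4 gate. Granule genes were higher in them too, with Mpo at 2338 and 2024 CPM against 364 and 424 in the rest, and Ctsg at 790 and 722 CPM against 111 and 131. Their Cebpe count was 0 UMIs in both pools. Csf1r was at 56.6 and 52.3 CPM in them against 2.13 and 2.31 in the rest, and Csf3r went the other way, at 31.6 and 31.0 CPM against 53.1 and 50.3. Ly86, part of a receptor complex of myeloid and B cells, was at 155 and 184 CPM against 1.99 and 2.22. The chemokine receptor gene Ccr2, known from monocytes and dendritic progenitors, was at 152 and 130 CPM against 0.896 and 1.49. Their median depth was 30196 and 28664 UMIs against 13613 and 14330. Batf3 was at 82.2 and 56.9 CPM against 0.147 and 0.139, and Xcr1 at 49.5 and 31.0 CPM against 0.0326 and 0.0616. Irf4 had 1 and 2 UMIs there. Kit RNA was lower in them, at 132 and 116 CPM against 297 and 304. Mpo was found in 63.9% and 62.7% of the Irf8-rich cells and Ctsg in 60.7% and 58.8%. Ccr2 was found in 55.7% and 58.8%, Csf1r in 49.2% and 39.2% and Ly86 in 82.0% and 92.2%. For Cebpe the counts were thus too few to show a difference, while summed levels of Csf1r, Ly86, Ccr2, Mpo and Ctsg were higher in these cells. Whether the same cells held them, and the part of the Elane-rich cells, was not tested.

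For Csf1r the panel also held the protein, as CD115. Cells with at least 3 Csf1r UMIs had a median of 2 CD115 tag UMIs in the control pool (21 cells) and 13 in the chelator pool (16 cells, quartiles 3 and 61.25), against 1 in the cells of either pool without Csf1r. CD371 was at 151 and 283 tag UMIs in the same Csf1r-positive cells. With any Csf1r UMI the median was 1 in both pools, as without. In the control pool 61.9% of the cells with at least 3 Csf1r UMIs had a CD115 UMI, against 64.9% of those without Csf1r. A median CD115 count far above that of the other cells was thus seen in the 16 chelator cells alone, and the difference between pools was not tested.

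How often the genes were met in the same cell was measured by Pearson's r over the 3969 and 3998 cells, on log counts per 10000 UMIs. These are descriptions, since the cells share a library and differ in depth. The pair with the highest r was Mpo and Ctsg, with 0.74 in the control and 0.77 in the chelator pool, and 0.68 and 0.72 without the Elane-rich cells. Elane with Ms4a3 gave 0.69 and 0.69, and Elane with Cebpe 0.68 and 0.70. Without the Elane-rich cells Elane with Ms4a3 gave 0.03 and 0.06, which the removal of 98.0% and 98.1% of Elane UMIs fixes. Mpo with Cebpa gave 0.41 and 0.43, and Csf1r with Irf8 0.34 and 0.28. Prtn3 with Elane gave only 0.23 and 0.26 although the genes are neighbours. The r of Mpo and Ctsg thus changed little without the Elane-rich cells.

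Among the richest 40 cells of each gene, Mpo and Elane shared 30 control and 34 chelator cells, Elane and Prtn3 30 and 35, and Mpo and Ctsg 33 and 34. Elane and Irf8 shared 5 and 6, and Irf8 and Cebpe 0 and 0. Cebpe was found in only 31 control and 21 chelator cells, so its richest 40 include cells without it. Of the cells with a Cebpe UMI, 29.0% and 38.1% had an Irf8 UMI, against 14.1% and 15.1% of all cells. So the cells with the most Prtn3 were largely those with the most Elane, while the bulk of Prtn3 lay elsewhere, and the cells with the most Irf8 were mostly others.

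**Figure D4:**
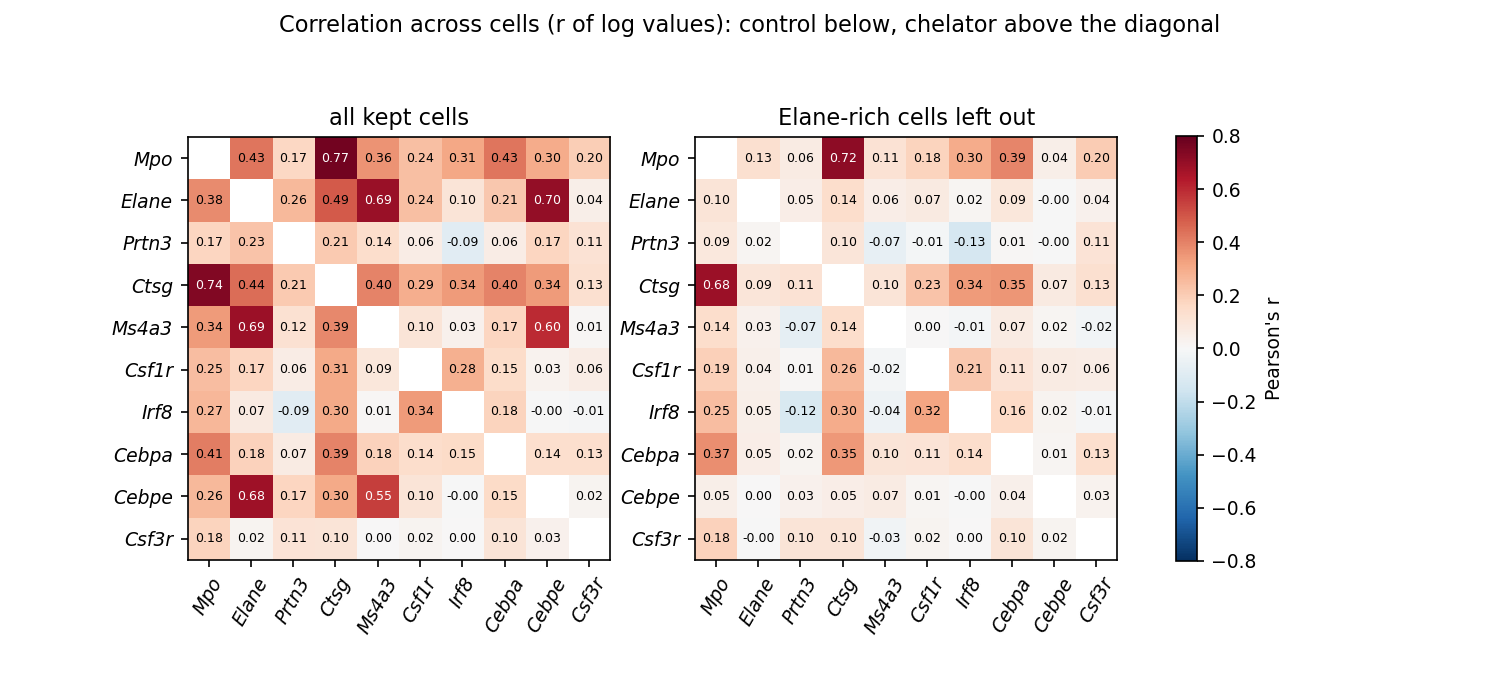
Pearson's r between each pair of the 10 genes over all kept cells (left panel), on log counts per 10000 UMIs, with the control pool below and the chelator pool above the diagonal, and again with the Elane-rich cells left out (right panel). Mpo with Ctsg has the highest values, 0.74 and 0.77, and keeps 0.68 and 0.72 on the right, while the low values of Elane and Cebpe there follow from the choice of the cells left out.

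The number of the 10 genes seen in 1 cell had a median of 1 in the HSC gate and of 3 in the MPP3 and MPP4 gates, in both pools. At least 5 of the 10 were found in 5 control and 3 chelator cells of the HSC gate. In the MPP3 gate they were found together in 133 (26.3%) and 166 (26.7%) cells, and in the MPP4 gate in 274 (18.2%) and 295 (22.9%). Over the whole fraction these were 428 and 480 cells. Deeper cells can show more genes, and the gates differ in depth as given above.

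The genes outside the 10 that varied most like the mean of Mpo, Elane, Prtn3, Ctsg and Ms4a3 over cells were ranked by the lower of the r values of the pools, over 12397 genes. Gm11505 came first, with 0.71 and 0.72. It is a predicted gene listed beside Mpo in the matrices, and whether its reads can be told from those of Mpo is not known, so its value is uncertain. Hp followed with 0.48 and 0.55, then the chemokine gene Ccl9 (0.45 and 0.47), Igsf6 (0.45 and 0.49) and Cst7, which encodes an inhibitor of cathepsins (0.45 and 0.46). Anxa3, Rab44, Atp8b4, Plac8, Ap3s1 and Hdc were also among the first 12. For single genes, Ly86 was most like Irf8 (0.63 and 0.61), F13a1 most like Csf1r (0.43 and 0.47), Plac8 most like Cebpa (0.38 and 0.40) and Ifitm1 most like Prtn3 (0.51 and 0.50). The gene ranked first thus differed between Prtn3, Irf8, Csf1r and Cebpa.

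The comparison of the pools asks how lasting iron chelation bears on these genes in aged LSK cells. Over the whole fraction the 10 genes were close to equal. Mpo was at 421 CPM in the control and 461 CPM in the chelator pool, a log2 ratio of chelator over control of 0.13 (0.11 to 0.15). Elane was at 113 and 128 CPM, a ratio of 0.18 (0.14 to 0.23), and Ctsg at 131 and 144 CPM, 0.14 (0.10 to 0.18). Prtn3 was at 558 and 587 CPM, 0.07 (0.05 to 0.09). These 4 granule protein genes were each slightly higher in the chelator pool. Irf8 was lower, at 41.0 and 37.8 CPM with a ratio of -0.12 (-0.20 to -0.04), and so was Csf3r, at 52.4 and 49.9 CPM with a ratio of -0.07.

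For the other genes the interval included equality. Ms4a3 was at 15.9 and 16.6 CPM, a log2 ratio of 0.07 (-0.06 to 0.19), and Cebpa at 19.4 and 18.3 CPM, -0.09 (-0.20 to 0.03). Csf1r was at 3.72 and 3.47 CPM, -0.10 (-0.37 to 0.17), and Cebpe at 1.45 and 1.40 CPM, -0.06 (-0.49 to 0.37). A gene was called when its level was at least 25% higher, or lower by the same factor, with an interval that left out equality. Of the 10 genes 0 were called in either direction, where 1.85% of 14869 genes were called higher and 2.19% lower. By the interval alone 4 of the 10 were higher and 2 lower, against 9.33% and 9.23% of all genes. Deeply counted genes can leave out equality at small ratios, and with 1 pool per condition the spread between mice is not known. The median log2 ratio of the 10 was 0.0042, against -0.0015 over all genes.

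Without the Elane-rich cells the small excess of Mpo in the chelator pool was gone, with 244 CPM in both pools and a log2 ratio of 0.0039 (-0.03 to 0.04). Ms4a3 then read 6.56 CPM in the control and 5.45 CPM in the chelator pool, -0.27 (-0.48 to -0.06), and Cebpe had 16 UMIs against 4. Ctsg kept 0.10 (0.04 to 0.15) and Irf8 -0.15 (-0.23 to -0.06). Of the 9 genes with enough counts, 0 were called, as before (1.84% of all genes were called higher and 2.16% lower).

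**Figure D5:**
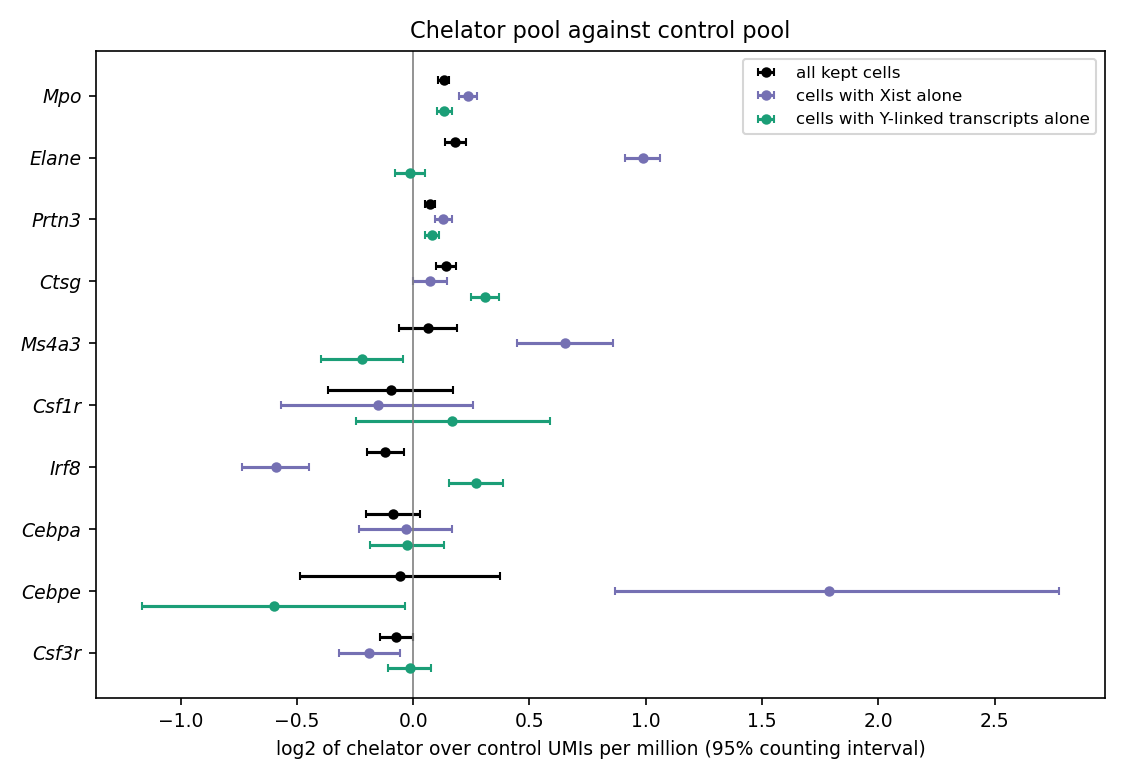
Log2 ratio of chelator over control CPM (x axis) for each of the 10 genes (y axis) with 95% counting intervals, over all kept cells, over cells with Xist alone and over cells with Y-linked transcripts alone. Over all cells every ratio lies between -0.12 and 0.18, while for Mpo, Elane, Ctsg, Ms4a3, Irf8 and Cebpe the intervals of the Xist and the Y-linked cells lie apart.

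Because the pools differed in their share of cells of each sex, the comparison was repeated within each. Among cells with Xist alone Elane was at 100.4 CPM in the control and 199 CPM in the chelator pool, a log2 ratio of 0.99, and among cells with Y-linked transcripts alone at 106 and 105 CPM, -0.01. Ms4a3 was at 15.6 and 24.5 CPM, 0.65 (0.45 to 0.86), among Xist cells, and at 15.7 and 13.5 CPM, -0.22 (-0.40 to -0.04), among Y-linked cells. Elane and Ms4a3 were thus higher in the chelator pool among Xist cells and not among the others. Irf8 went the other way, at 53.5 and 35.5 CPM, -0.59 (-0.73 to -0.45), among Xist cells and at 31.3 and 37.7 CPM, 0.27 (0.15 to 0.39), among Y-linked cells. Among Xist cells 2 of 9 genes were called higher (3.98% of all) and 1 lower (2.42% of all). Among Y-linked cells 0 of 10 were called higher (1.82% of all) and 1 lower (2.38% of all), which was Cebpe.

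The Elane and Ms4a3 values among Xist cells rest on few cells, 13 Elane-rich cells in the control and 12 in the chelator pool. Without them Elane had 66 and 37 UMIs among Xist cells, a log2 ratio of -0.17 with an interval that included equality, and Ms4a3 gave -0.26 (-0.61 to 0.07). The Irf8 values held without them, at -0.69 among Xist and 0.32 among Y-linked cells. Ctsg also split then, at -0.39 among Xist cells and 0.49 among Y-linked cells, and Mpo at -0.23 and 0.27. The number of mice behind each sex of a pool is not given, so 1 mouse and a sex cannot be told apart here.

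The pools were also compared within each gate. In MPP4 Elane had 1349 control and 2558 chelator UMIs, a log2 ratio of 1.04, and Ms4a3 193 and 301 UMIs, 0.76. These were the 2 of 10 genes called higher there (1.36% of all), and 0 were called lower (2.09% of all). In MPP3 Ms4a3 was lower in the chelator pool, 671 against 646 UMIs at 67.2 and 52.8 CPM, with a ratio of -0.35. It was the 1 gene called lower there (3.26% of all), 0 were called higher (2.9% of all), and Elane stood at -0.28. In MPP2 4 of 7 genes were called higher (2.65% of all), namely Mpo, Elane, Ms4a3 and Irf8, and 0 lower (3.79% of all). Of the 84 Irf8 UMIs of the chelator MPP2 gate 49 came from 1 cell. In the HSC gate Mpo, Ctsg and Irf8 were higher (1.59% of all) and Elane lower (1.97% of all), and in MPP1 Mpo was called lower (2.62% of all) and 0 of 4 genes higher (3.7% of all). Without the Elane-rich cells Mpo in the HSC gate was lower in the chelator pool, 123 against 95 UMIs, where it had been higher. In MPP4 neither call remained without them, with Elane at 0.41 (-0.12 to 0.95) and Ms4a3 at 0.39 (-0.07 to 0.84). In MPP2 Mpo was then at 0.05 and Elane at 2 against 3 UMIs, while Ms4a3 stayed at 0.75 (0.11 to 1.42) and Irf8 at 2.01 (1.26 to 2.84). Irf8 in the HSC gate stayed at 0.66 (0.01 to 1.33), and Ms4a3 in MPP3 was at -1.05. Ctsg in the HSC gate was then at -0.34, from 25 and 23 UMIs, and Elane at -0.17, from 26 and 27 UMIs. Both of these intervals included equality, so neither the Ctsg nor the Elane call of the HSC gate remained.

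The wider lists of the pathway were compared between the pools by the same rule. Among early granule genes and genes of granulocyte-monocyte progenitors, 14 of 15 had enough counts, of which 1 was called higher, 0 lower, and the median log2 ratio was -0.01. Srgn, which encodes the granule proteoglycan serglycin, was at 1225 and 1215 CPM. Of the myeloid regulators 0 of 11 were called in either direction, and Spi1, which encodes PU.1, was at 137 and 133 CPM. Of the cytokine receptors 1 of 8 was lower, and of the later granule genes 1 of 3. Among monocyte and dendritic genes 1 of 11 was higher and 2 were lower, and these were F13a1 at 8.24 and 14.1 CPM, Batf3 at 2.53 and 1.46 CPM and Irf4 at 1.55 and 0.752 CPM, named after their values were seen. The Elane-rich cells held 220 control and 633 chelator UMIs of F13a1. Outside them F13a1 was at 4.85 and 4.67 CPM, so its excess lay in those few cells. Over the 5 lists 2 of 47 measured genes were called higher (4.26%) and 4 lower (8.51%), against 1.85% and 2.19% of all genes, with 1 gene that is in 2 lists counted under both.

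Across the gates the same lists followed the 10 genes in part. In MPP3 over the HSC gate 8 of 14 early granule genes were more than 2-fold higher in both pools, among them Plac8 at log2 ratios of 4.46 and 4.45, and Nkg7. Of the monocyte and dendritic genes 5 of 10 were higher, of the cytokine receptors 3 of 7, and of the later granule genes 0 of 2. Among the regulators Spi1 was higher, at 1.19 and 1.31, while Cebpb, Gfi1b and Zfpm1 were lower. Gfi1b and Zfpm1 are known from the erythroid and megakaryocyte branches. The shares of all genes past this rule were 5.05% higher and 11.7% lower.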

How the data were processed

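RNA and antibody tags were measured in 1 control and 1 chelator pool of mouse LSK cells. The matrices that the authors deposited hold raw UMI counts, without normalization, for 32285 genes and the tags. The submitters' processing notes list mm10, Seurat 4.3.0 and Cell Ranger 7.0.0; per the file headers the version was 7.0.1. How the authors filtered barcodes and assigned hashtags is not given in these sources. Conditions came from the matrix names and were checked against the hashtags: 4025 of 4026 control barcodes and 4037 of 4037 chelator barcodes had more of their own hashtag.

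Cells were kept from 500 genes upward and below 10% mitochondrial UMIs. No doublet caller was run. Counts were summed per pool or gate, scaled to CPM and compared as log2 ratios with exact conditional binomial intervals for every gene with at least 50 UMIs in the cells compared, of both pools. Called means at least 25% higher, or lower by that factor, between pools, or past 2-fold between gates in both pools, with an interval that leaves out 1. Intervals were exact Poisson for UMI sums and Clopper-Pearson for shares. Tags were scaled by centred log ratio over 126 tags less 9 isotype controls and split by a 2-component Gaussian mixture over both pools. Xist cells had at least 2 Xist UMIs and 0 from 4 Y-linked genes, and Y-linked cells at least 1 and 0 Xist. Python 3.11.15, NumPy 2.4.6, SciPy 1.17.1, pandas 2.3.3 and scikit-learn 1.9.0 were used. The ratios, the split of a tag and the difference of shares were checked on simulated data, and the concentration measures were not part of that check.

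The 10 genes, the 5 lists and the tests were chosen with earlier results of these data known. Other genes were named by rule: the 12 most like the mean of 5 granule genes, of which 1 is not reported here, and up to 4 of each list with most UMIs. Further genes, among them those most like single genes, marker genes in Elane-rich and Irf8-rich cells and those called in a list, were named after their values were seen. Alternatives covered cell filters, sex, doublets, UMI-rich cells, scaling, tag thresholds and thinning; those without Elane-rich cells that count calls, or split by gate or sex, were added after the data were seen.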

Additional observations from a re-analysis of the deposited data

Results flagged for a closer look

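Ms4a3 differed in direction between the sexes: chelator over control was a log2 ratio of 0.65 among cells with Xist alone and -0.22 among cells with Y-linked transcripts alone. Without the Elane-rich cells both were below 0, at -0.26 and -0.27. Irf8 went the opposite way, with -0.59 among Xist cells and 0.27 among Y-linked cells, and without the Elane-rich cells -0.69 and 0.32. Cebpe had 1.79 among Xist cells, from 15 control and 33 chelator UMIs, and -0.60 among Y-linked cells, from 57 and 53. The Xist UMIs are together below the minimum of 50 set for a comparison. With the Elane-rich cells left out Cebpe was below 0 in both, at -0.92 from 3 and 1 UMIs and -2.95 from 11 and 2. The interval of the Xist ratio then included equality.

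Between gates, Elane had a log2 ratio of -0.28 in MPP3 and 1.04 in MPP4. Without the Elane-rich cells these were -0.40 and 0.41, both with intervals that included equality. Ms4a3 had -0.35 in MPP3 and 0.76 in MPP4, and without those cells -1.05 and 0.39. In each of these cases the intervals of the 2 ratios lay on opposite sides of equality, which is why they are listed. The differences themselves were not tested, since each condition is 1 pool. The part of the CD135 threshold, which parts MPP3 from MPP4, was not tested either.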

How the results depend on the processing

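The median log2 ratio of chelator over control over the 10 genes stayed between -0.076 and 0.14 under all settings, and the difference in the share of Elane-rich cells between 0.0472 and 0.420 percentage points, with every interval including 0. Of 100 single-gene ratios between the pools under other settings, 69 stayed within the counting interval of the reported value and 10 changed sign, 3 of them where that interval left out equality: Elane, 0.18 as reported, was -0.013 in Y-linked cells and -0.078 as a mean over cells, and Irf8, -0.12 as reported, was 0.27 in Y-linked cells. Without the 5 richest cells of each pool Elane was 0.68. In MPP3 over HSC, Prtn3 was -0.52 and -0.51 without Elane-rich cells and -0.22 and -0.27 as a mean over cells. The median of the 10 genes was 3.27 and 2.78 without Elane-rich cells, and 5 in place of 8 genes passed in MPP4. The median share in the richest cells was 40.0% and 38.7% after thinning to 5000 UMIs, and 64.2% and 63.7% for the richest 2% of cells; the former leaves fewer UMIs and the latter takes more cells. Other causes were not tested. Cebpe had 0 UMIs in the chelator HSC gate with higher tag thresholds, so that setting gave no ratio. No paired analysis was possible because each condition is 1 pool. Depth limits Cebpe and Csf1r most, with under 250 UMIs in each pool.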

Other observations

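Within the HSC gate the level of Prtn3 went with that of several HSC genes. With the Elane-rich cell of each pool left out, the cells were ranked by their Prtn3 share of UMIs and split into 4 equal bands, of 291 control or 327 chelator cells each, a split chosen after values had been seen. Median Prtn3 was 2, 6, 10 and 17 UMIs from the lowest to the highest band of the control pool and 3, 7, 11 and 16 in the chelator pool. Procr, which encodes the HSC marker EPCR, was at 63.4, 178, 261 and 272 CPM in the control bands and at 45.5, 161, 199 and 267 CPM in the chelator bands. Sult1a1 went from 52.9 to 405 and from 70.9 to 431 CPM between the lowest and the highest band, and Hlf, which encodes a transcription factor of HSCs, from 198 to 561 and from 198 to 517 CPM. Procr and Sult1a1 are among the genes most like Prtn3 over all cells, so that their order follows in part from the choice. Mecom, another factor of HSCs, went from 265 to 389 and from 261 to 363 CPM. Mpo had no such order in the control bands, at 5.77, 10.2, 8.70 and 5.36 CPM. In the chelator bands it was at 3.08, 4.43, 4.15 and 9.16 CPM, highest in the top band, from only 18, 22, 19 and 36 UMIs. The lowest bands were also the deepest, with median depths of 16602 and 15454 UMIs against 11860 and 11683 in the highest, and the part of depth was not tested.

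Prtn3 was also found in cells rich in Pf4, a megakaryocyte gene (at least 10 UMIs). It had a UMI in 63 of 86 such control cells (73.3%) and 67 of 79 such chelator cells (84.8%), at median depths of 24727 and 22952 UMIs. Ms4a3 had one in 23 (26.7%) and 16 (20.3%) of these cells, Mpo in 11 (12.8%) and 3, and Elane in 1 and 0.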
